A study of Mus musculus with 4 samples.

Results

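The cells described here are interferon-response type 1 conventional dendritic cells (cDC1) of mouse spleen that lack the maturation genes Ccr7 and Fscn1. They were chosen by measured values. A cell had to carry at least 500 detected genes, at least 1000 RNA molecules counted by unique molecular identifiers (UMIs) and under 10% mitochondrial UMIs. It had to show at least 3 UMIs of the antibody to XCR1, the chemokine receptor that marks cDC1, and at most 2 UMIs of the antibody to CD172a, which marks cDC2. At most 1 UMI of Ccr7, the receptor for the migration of mature DCs to T cell zones, and none of Fscn1, which encodes the actin-bundling protein fascin, was allowed. Finally, at least 3 of the interferon-induced genes Irf7, Slfn5, Iigp1 and Ly6a needed a UMI each. The rule kept 905 cells, 259 in library 1 and 646 in library 2, out of 13203 gated Ccr7-low cells and 31790 barcodes in all. The cells compared with them passed the same gate and had no UMI of any of the 4 genes, which left 4817 cells (2113 and 2704).

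The study profiled spleens of WT C57BL6 mice labelled steady-state, with no other genotype or treatment, by CITE-seq, a single-cell method that reads RNA together with surface proteins tagged by barcoded antibodies. DCs from the spleens of 2 mice, enriched by removing other cells, were stained with a panel of 160 such antibodies plus 9 isotype controls, which have no target. The sorted suspension mixed 50000 to 60000 cDC1, 10000 cDC2 and 10000 random live cells. The study asked about stages of tolerogenic cDC1 maturation and LXR signalling. Its labels give 2 replicates without saying that each was a separate mouse. The fits took out the overall difference between the 2 libraries, unless given below as without the library block. Their p-values therefore measure only how differences between 6 classes of cells varied between 2 libraries, a spread that may be technical.

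Interferons are cytokines of antiviral defence. Type I interferons signal through the receptor chains IFNAR1 and IFNAR2 to transcription factors, IRF9 among them, that bind the interferon-stimulated response element. Interferon gamma signals through IFNGR1 and IFNGR2 and acts on genes by way of the gamma-activated site. Many target genes respond to both kinds. Splenic cDC1 take up dying cells, present their antigens on MHC class I to CD8 T cells and are known to respond to both kinds of interferon, and some mature without infection, gaining Ccr7 and Fscn1.

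The promoters of 6 genes that were higher in the interferon-response cells are shown because they carry the binding motifs of these pathways. Each line holds the 250 bases before the annotated start in RefSeq (build GRCm38.p6), read 5′ to 3′ on the gene's strand. Capitals mark matches, on either strand, to the core of the response element, GAAANNGAAA, or to the gamma-activated site, TTCNNNGAA. The windows lie at chr4:156200819-156201068 (minus strand) for Isg15, chr5:92348890-92349139 (minus) for Cxcl10, chr3:142496684-142496933 (plus) for Gbp5, chr11:58199306-58199555 (plus) for Igtp, chr11:48871421-48871670 (minus) for Irgm1 and chr8:71537473-71537722 (minus) for Bst2.
Isg15: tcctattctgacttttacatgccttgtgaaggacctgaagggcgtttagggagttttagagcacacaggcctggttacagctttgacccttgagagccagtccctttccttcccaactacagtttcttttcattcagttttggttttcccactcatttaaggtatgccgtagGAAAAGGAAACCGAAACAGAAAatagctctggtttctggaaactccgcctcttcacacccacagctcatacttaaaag
Cxcl10: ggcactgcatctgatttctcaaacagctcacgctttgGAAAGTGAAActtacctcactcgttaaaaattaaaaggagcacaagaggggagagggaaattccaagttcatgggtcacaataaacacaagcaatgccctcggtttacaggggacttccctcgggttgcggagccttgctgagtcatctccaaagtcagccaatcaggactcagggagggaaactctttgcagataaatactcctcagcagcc
Gbp5: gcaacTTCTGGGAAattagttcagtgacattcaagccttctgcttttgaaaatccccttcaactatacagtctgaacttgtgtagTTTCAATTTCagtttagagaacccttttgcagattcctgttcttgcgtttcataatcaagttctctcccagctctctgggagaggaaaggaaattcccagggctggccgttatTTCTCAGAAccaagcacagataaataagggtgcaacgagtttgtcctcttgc
Igtp: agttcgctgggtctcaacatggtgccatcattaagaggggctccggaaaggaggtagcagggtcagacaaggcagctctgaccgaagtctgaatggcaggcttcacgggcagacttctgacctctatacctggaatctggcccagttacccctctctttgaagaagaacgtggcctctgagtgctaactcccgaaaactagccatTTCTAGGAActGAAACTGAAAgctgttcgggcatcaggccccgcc
Irgm1: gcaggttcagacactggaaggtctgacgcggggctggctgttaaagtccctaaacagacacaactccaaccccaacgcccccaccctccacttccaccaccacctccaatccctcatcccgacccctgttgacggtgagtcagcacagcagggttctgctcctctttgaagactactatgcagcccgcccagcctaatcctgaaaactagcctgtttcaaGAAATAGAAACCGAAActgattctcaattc
Bst2: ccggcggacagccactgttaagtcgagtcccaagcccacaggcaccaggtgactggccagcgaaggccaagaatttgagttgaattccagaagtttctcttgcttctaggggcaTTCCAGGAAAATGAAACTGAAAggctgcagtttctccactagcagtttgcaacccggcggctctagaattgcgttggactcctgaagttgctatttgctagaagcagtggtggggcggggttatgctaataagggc

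Isg15, a ubiquitin-like protein, had 3 overlapping response-element matches beginning at positions -78 to -66, where -1 is the base before the start. Cxcl10 had 1 at -213, Irgm1 had 2 at -30 and -24, and Igtp had 1 at -34 and a gamma-activated match at -45. Gbp5 held 1 response-element match at -165 and 2 gamma-activated matches at -245 and -52. In Bst2 a gamma-activated match at -136 overlapped the first of 2 response-element matches at -130 and -124. Among 27025 genes with a promoter window in the table (1 chromosome left out), 3.46% held the response-element letters and 8.13% the gamma-activated letters. Among the 9019 of them that were tested for RNA differences, the shares were 3.5% and 7.1%. Of the 265 higher genes with a promoter in the table, 47 (17.7%) held the response element and 32 (12.1%) the gamma-activated site, and of 128 lower genes 7 (5.47%) held each. Of the guanosine triphosphatases (GTPases) listed below, 10 of the 11 with a promoter held the response element and 6 the gamma-activated site, against 16 and 5 of 37 type I interferon-stimulated genes. Neither motif was found in the windows of Irf7, Cxcl9, Ifi47 or Slc4a8. A match describes letters and shows no binding.

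The 4 genes that chose the cells are described without a test. Levels are given in CPM, the usual scaling of a gene's UMIs to all RNA UMIs of a class, first in library 1 and then in library 2. Irf7, the transcription factor that amplifies type I interferon production, stood at 243 and 245 CPM. Slfn5, of the schlafen family, stood at 232 and 219 CPM, and Ly6a, which encodes the surface protein Sca-1, at 139 and 186 CPM. Iigp1, a GTPase of the immunity-related family, stood at 36.0 and 83.8 CPM and had a UMI in 17.4% and 28.3% of members, so it was the gene most often missing. A cell that had 3 of the 4 genes lacked Iigp1 in 677 cases (74.8% of all members), Ly6a in 72, Irf7 in 37 and Slfn5 in 30, and 89 cells (9.83%) had all of them. The cells were therefore mainly Irf7, Slfn5 and Ly6a triple-positive. Summed over the 4 genes a cell held a median of 6 UMIs, with 3 UMIs in 123 cells (13.6%) and 10 or more in 203 (22.4%).

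Cells just inside and just outside the threshold differed in degree. The 816 cells with exactly 3 genes had Cxcl9, the interferon-induced ligand of CXCR3, a chemokine receptor of activated T cells, at 1065 and 1211 CPM, whereas the 2696 gated cells with 2 genes had 424 and 539 CPM. Cxcl9, a marker given with the label, stood at 1345 and 1500 CPM over all members and at 306 and 359 CPM in cells with none of the 4 genes, a log2 difference of 2.12 that is given as description. A Cxcl9 UMI was found in 66.8% and 81.0% of members and in 50.7% and 52.7% of the comparison cells. After every cell was thinned to 2000 UMIs the shares were 44.4% and 55.4% against 29.5% and 31.6%. T cells, taken as cells that should lack Cxcl9, gave 2.95% and 5.51% at that depth. Before thinning, median depth was 10371 and 9760.5 UMIs in members, 8382 and 7184.5 in the comparison cells and 3182 and 3032 in T cells.

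Members made up 4.94% of gated Ccr7-low cDC1 in library 1 (259 of 5245, exact 95% binomial interval 4.37% to 5.56%) and 8.12% in library 2 (646 of 7958, 7.53% to 8.74%). The intervals cover counting error only. The share depended on depth. With every cell thinned to 4000 UMIs, 1.24% (61 of 4901, 0.953% to 1.60%) and 2.62% (192 of 7321, 2.27% to 3.01%) met the rule, after 457 and 789 shallower cells were left out. The share of library 2 was the larger both ways, and no test is possible with 2 libraries of a single group.

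**Figure D1:**
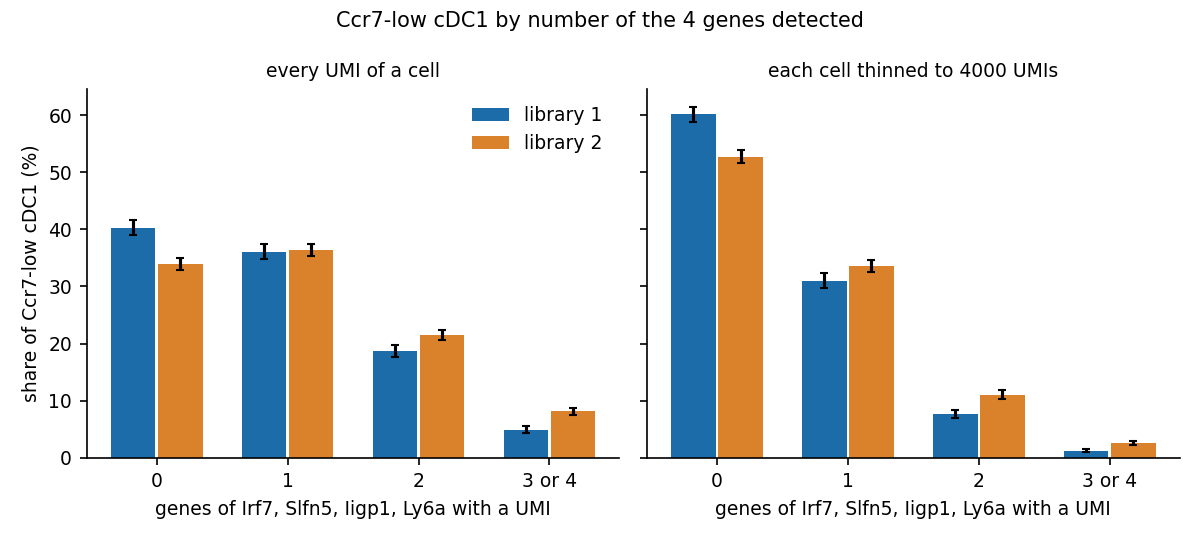
Share of gated Ccr7-low cDC1 with a UMI of none, 1, 2, or 3 or 4 of the genes Irf7, Slfn5, Iigp1 and Ly6a, in percent of cells, at full depth and after thinning to 4000 UMIs; colours are the libraries and bars are exact 95% binomial intervals. Cells with 3 or 4 genes were the smallest class in each library, 4.94% and 8.12% at full depth.

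In the plot of shares by number of genes the members are the smallest class. A gene of few UMIs can be missed in a cell, so these shares cannot tell a graded state from a separate one. Cells with none of the genes made up 40.3% and 34.0%, those with 1 gene 36.1% and 36.4%, and those with 2 genes 18.7% and 21.5%. Members and comparison cells differed in more than the chosen genes. Members had a median of 2640 and 2578 genes against 2325 and 2126, and the doublet caller Scrublet marked 4.31% of members and 1.83% of comparison cells. The libraries shared 61 barcodes, 2 of them among members. Cells with these genes were also found outside cDC1. At 2000 UMIs, 0.372% and 0.713% of gated cDC1 had at least 3 of the genes, against 0.439% and 1.03% of cDC2-gated cells and 0.403% and 0.501% of T cells, so no order between these cell types is read from the shares.

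The main comparison asked which other RNAs went with the 4 chosen genes. UMIs were summed by class and library and tested with edgeR's quasi-likelihood test, with library as a block and Benjamini-Hochberg adjustment over 12414 genes. At an adjusted p under 0.05, 338 genes (2.72% of those tested) were higher and 178 (1.43%) lower in interferon-response cells than in cells with none of the 4 genes, and 2012 genes had an unadjusted p under 0.05. The median log2 difference over all genes was -0.0046. Within library 1 alone, 337 of the 338 higher and all 178 lower genes kept their direction, and within library 2 all did. The members were deeper than the comparison cells. Against comparison cells matched to them in depth (338 and 226 cells), 428 genes were higher and 643 lower, and 251 of the 338 and 76 of the 178 were called again in the same direction. Without the library as a replicate block, 139 higher and 35 lower genes were called.

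Transcripts of interferons themselves were nearly undetected in the members. Of 10 interferon genes, Ifnb1, Ifna1, Ifna2, Ifna4, Ifna5, Ifnk, Ifne, Ifnl2 and Ifnl3 had 0 UMIs in the 905 cells, which allows a share of cells with a UMI of up to 0.331% for each. Ifng, the type II interferon of T and NK cells, stood at 1.65 and 0.414 CPM and did not pass the test. Of the 6 receptor chains tested, none passed the test. Ifnar1 stood at 39.0 and 43.4 CPM in members against 44.7 and 48.5, and Ifnar2 at 41.0 and 47.9 against 38.4 and 38.5. Ifngr1, the ligand-binding chain for interferon gamma, stood at 447 and 464 CPM against 534 and 541 (log2 -0.21, adjusted p = 0.0525).

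Signalling factors downstream of the receptors were higher in part. Of 12 such genes 6 were higher and none lower (3 higher without the library block), with a list median of 0.13. Irf1, an interferon-induced transcription factor that itself activates interferon-response genes, was at 74.0 and 84.4 CPM against 29.7 and 36.4 (log2 1.28, SE 0.11). Stat2, a transcription factor of type I signalling, was higher by 0.94, Stat3 by 0.37 and Irf9 by 0.34 on the log2 scale. Irf8, the transcription factor on which cDC1 depend, differed little, at 2139 and 2353 CPM against 2013 and 2154 (log2 0.13, adjusted p = 0.0464).

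Type I interferon-stimulated genes were higher as a group. Of 47 listed genes 43 were tested, 36 were higher and none lower, and the list median was 1.30 with a range of 0.05 to 4.79. Isg15 rose from 22.3 and 25.4 CPM in the comparison cells to 180 and 152 CPM in members (log2 2.80, SE 0.15, adjusted p = 1.26e-09). Rsad2, the antiviral enzyme viperin, rose from 0.790 and 0.717 to 11.57 and 11.04 CPM (log2 3.93, SE 0.26), in 45 of the 905 members. Ifi44, an interferon-induced cytosolic protein, rose from 0.903 and 0.871 to 12.2 and 13.1 CPM (log2 3.88), in 90 members. The RNA of each was held by a minority of members.

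Other antiviral effectors followed at graded sizes. Ifit2, which binds viral RNA, rose by 2.96 on the log2 scale, Ifi204, a DNA-binding protein of the PYHIN family, by 2.69, and Oasl1, which holds back Irf7 translation, by 2.46. Isg20, an RNA exonuclease, rose by 1.80, Ifi203 by 1.96 and Rnf213, a large ubiquitin ligase, by 1.36. Bst2, the tetherin that retains budding virions, was already abundant in the comparison cells at 109 and 110 CPM and reached 187 and 179 CPM (log2 0.76, adjusted p = 1.71e-07). Mx1, a dynamin-like antiviral GTPase, rose by 0.83. Mx2 (0.70, adjusted p = 0.410) and Epsti1 (0.15, adjusted p = 0.335) did not pass. Copies that share reads, such as Ifit3 and Ifit3b, enter the count but are not named as examples because counting can split them.

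Interferon-inducible GTPases, which attack the vacuoles of intracellular pathogens, showed the largest median of the gene lists read. Of 20 listed genes 15 were tested apart from Iigp1, 12 were higher and none lower (8 without the library block), and the median was 2.17. Gbp5, a guanylate-binding protein that promotes inflammasome assembly, rose from 0.564 and 1.59 CPM to 19.2 and 28.3 CPM (log2 4.48, SE 0.21, adjusted p = 3.66e-10). Ifi47 rose from 2.48 and 3.38 to 28.8 and 35.1 CPM (log2 3.45, SE 0.16, adjusted p = 3.66e-10). Gbp2 rose from 1.58 and 3.64 to 18.8 and 28.2 CPM (log2 3.17). A UMI of Gbp5, Ifi47 and Gbp2 was found in 136, 184 and 138 of the 905 members. Igtp rose by 2.29, Gbp4 by 2.32 and Irgm1, a regulator of the other immunity-related GTPases, by 2.16 on the log2 scale.

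**Figure D2:**
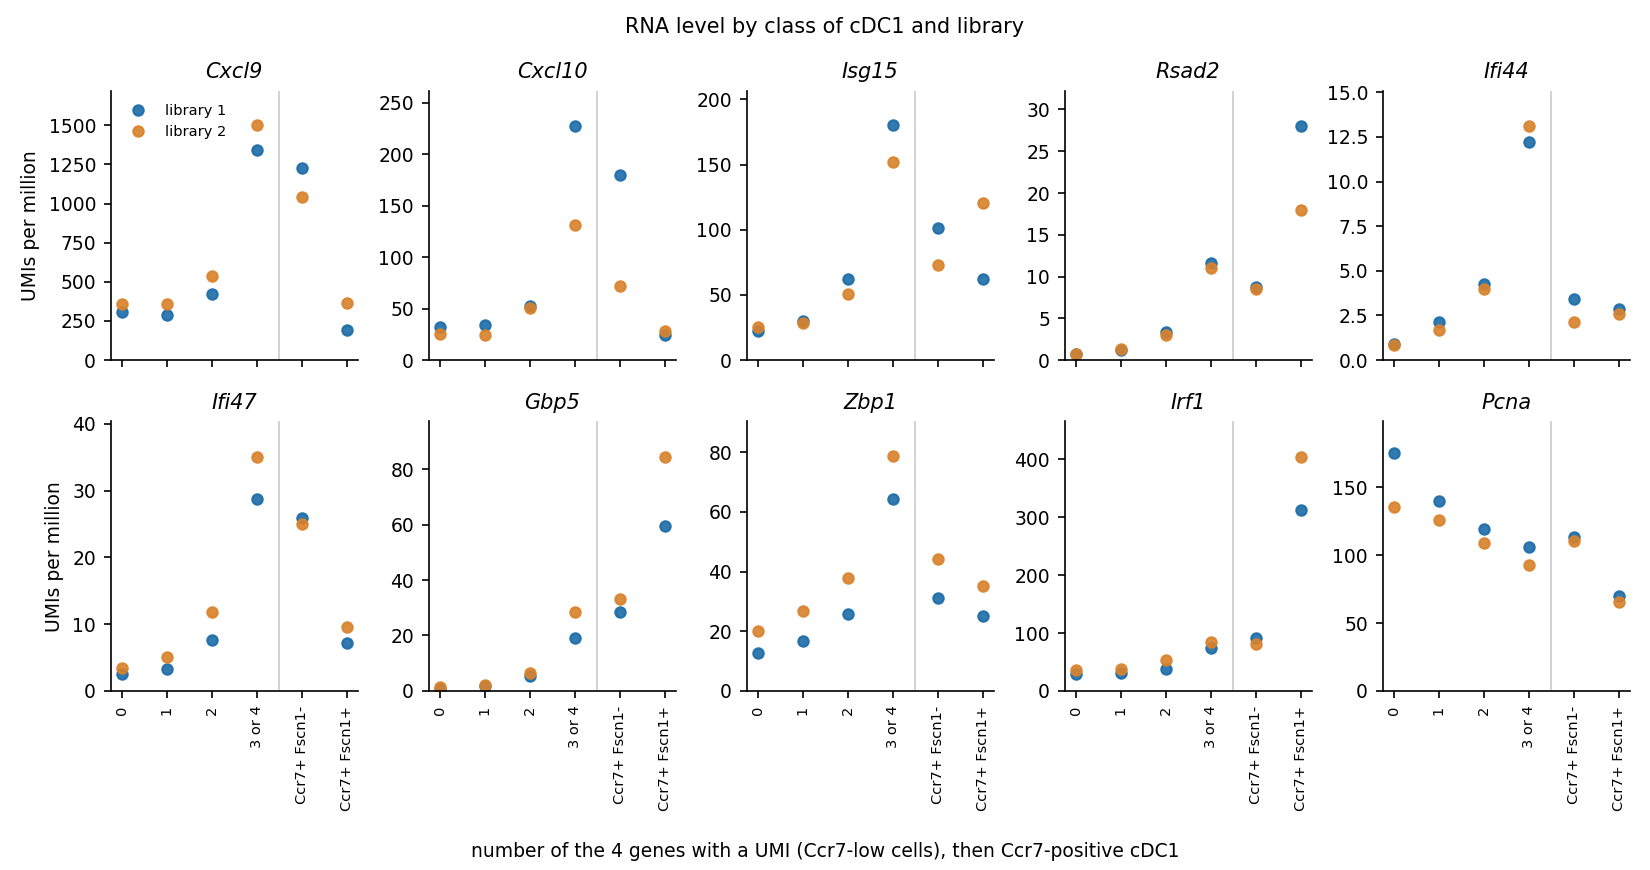
RNA level of 10 genes in CPM (vertical axes, each from 0) in gated Ccr7-low cDC1 with 0, 1, 2, or 3 or 4 of the chosen genes and, right of the grey line, in Ccr7-positive cDC1 without and with Fscn1; each point is 1 library. Isg15 reached 180 and 152 in the class with 3 or 4 genes and 22.3 and 25.4 in the class with none, and Pcna ran the other way.

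**Figure D3:**
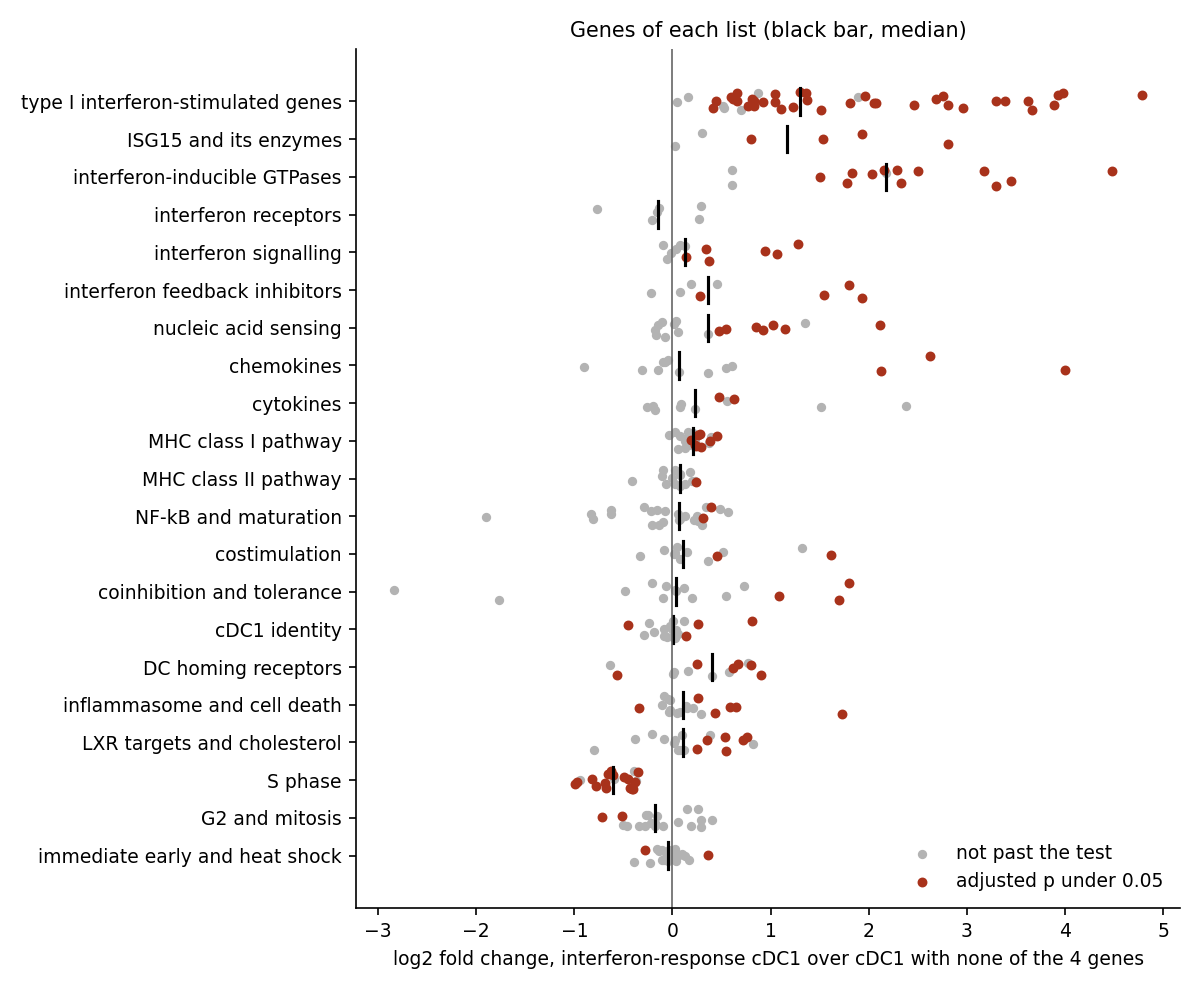
Log2 difference of interferon-response cDC1 against cDC1 with none of the 4 genes, for each tested gene of each list (1 point a gene, red where the adjusted p was under 0.05, black bar for the list median). GTPases (median 2.17) and type I interferon-stimulated genes (1.30) lie to the higher side, and S phase genes (-0.60) to the lower.

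Feedback inhibitors and the ISG15 system were higher in part. Of 8 inhibitors 4 were higher (median 0.37). Usp18, which removes ISG15 and blocks IFNAR2, rose from 8.52 and 9.47 to 42.0 and 28.9 CPM (log2 1.93). Socs1, which inhibits JAK kinases, rose from 6.04 and 6.45 to 25.4 and 19.5 CPM (log2 1.80), and Socs3 rose by 1.55. Of 6 genes of the ISG15 system, Isg15 and Usp18 included, 4 were higher (median 1.17), among them the conjugating enzyme gene Ube2l6 (log2 1.53) and Herc6 (0.81).

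Nucleic acid sensors were higher in part, 7 of 17 tested with none lower and a median of 0.37. Zbp1, a sensor of Z-form nucleic acids that can trigger necroptosis, rose from 12.9 and 20.1 to 64.5 and 78.8 CPM (log2 2.12, SE 0.09, adjusted p = 2.54e-10). Dhx58 (log2 1.15) and Ifih1 (1.02), which encode the cytosolic RNA receptors LGP2 and MDA5, and Tmem173 (0.93), which encodes the DNA-pathway adaptor STING, also rose. Tlr3, the endosomal receptor for double-stranded RNA that is typical of cDC1, stood at 135 and 149 CPM against 135 and 152 (log2 0.01, adjusted p = 0.958).

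Of 13 chemokine genes 3 were higher (median 0.06), and they were the CXCR3 ligands Cxcl10, Cxcl11 and Cxcl9. Cxcl9 is described above and, as a marker given with the label, is no independent call. Cxcl10 rose from 32.3 and 25.1 CPM to 228 and 131 CPM (log2 2.62, SE 0.17, adjusted p = 1.35e-08). Cxcl11 rose from 0.395 and 0.358 to 6.61 and 5.25 CPM (log2 4.00, SE 0.44), in 32 members. Ccl4 and Ccl5, which attract T cells and NK cells, did not pass (log2 -0.04 and -0.09). Of 11 cytokine genes tested 2 were higher (median 0.23), namely Il15, which sustains memory CD8 T cells and NK cells (13.3 and 13.3 to 16.9 and 18.6 CPM, log2 0.47), and Il18 (log2 0.63). The count was 0 without the library block, 6 of 10 (median 1.16) with the chosen genes thinned to 4000 UMIs and 4 of 10 higher with 1 lower when only the 2 classes were fitted. Il12b, the p40 chain of interleukin 12, stood at 33.7 and 50.5 CPM against 26.9 and 34.0 (log2 0.56, adjusted p = 0.0724).

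Antigen presentation genes showed small differences. In the MHC class I pathway 8 of 23 genes were higher and none lower (median 0.21), a count that was 2 without the library block and 14 with only the 2 classes in the fit. Psmb10, an immunoproteasome subunit, rose from 134 and 141 to 179 and 191 CPM (log2 0.45, adjusted p = 6.07e-05), and its partners Psmb8 and Psmb9 rose by 0.26 and 0.23. Tap2, of the peptide transporter, was also higher (0.24), while Tap1 (0.23, adjusted p = 0.0538), the heavy chain genes H2-K1 (0.13) and H2-D1 (0.16) and the light chain B2m (0.06) did not pass. Of 15 MHC class II genes 1 was higher, the protease gene Ctss (310 and 324 to 359 and 374 CPM, log2 0.24), and H2-Ab1 stood at a difference of 0.07. With only the 2 classes in the fit, 8 class II genes were higher. The antibody to H2-Kb gave 0 UMIs in both classes, so the surface protein was not measured by it.

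Few genes of DC maturation passed the test. Both classes met the same limits on Ccr7 and Fscn1, so near-equal levels are no independent check of maturation. In the list of NF-kB and maturation genes 2 of 26 were higher (median 0.06), Birc3, an inhibitor of apoptosis (log2 0.40), and Nfkbia, the NF-kB inhibitor (0.31). Relb, a subunit of the noncanonical NF-kB pathway, stood at 39.0 and 43.1 CPM against 32.1 and 34.4 (log2 0.35, adjusted p = 0.107), and Ccl22 at 2.98 and 6.90 against 4.18 and 7.42. The count of this list varied with the setting. It was 8 of 26 (median 0.37) with the chosen genes thinned, 7 of 26 (median 0.26) for members with all 4 genes, 7 higher and 2 lower of 24 with only the 2 classes in the fit, and 0 without the library block or for cells with at least 2 of the chosen genes. Among 12 costimulatory genes Cd40, the receptor for T cell help, rose from 22.5 and 21.8 to 68.8 and 65.3 CPM (log2 1.61, SE 0.18, adjusted p = 1.12e-05) and the adhesion molecule gene Icam1 by 0.45. Cd80 (-0.33) and Cd86 (0.01) did not pass. Of 15 genes of coinhibition and tolerance 3 were higher, among them Lgals9, which encodes galectin-9 (log2 1.69), and Cd274, which encodes PD-L1 and rose from 8.63 and 9.11 to 16.2 and 19.9 CPM (log2 1.09, adjusted p = 0.0223).

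Genes of cDC1 identity were read beside the comparison cells. Both classes passed the same gate on XCR1 and CD172a protein, so near-equal levels are no independent check of identity. Xcr1 RNA stood at 471 and 555 CPM in members against 474 and 560, and Clec9a, the receptor for actin of dead cells, at 277 and 318 against 299 and 346. Neither passed the test, nor did Batf3 (log2 0.05) or Naaa (-0.0039). Of 20 identity genes 3 were higher and 1 lower (median 0.01), with 1 higher without the library block and 6 against depth-matched cells. Ifi205, which is both a cDC1 marker and an interferon-inducible gene, rose by 0.81 and Cd24a by 0.26, and Itgae, which encodes CD103, fell by 0.45.

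Among 13 tested homing receptor genes 5 were higher and 1 lower (median 0.40), against 3 higher without the library block and 0 higher of 11 for members with all 4 genes. Ccr2, the receptor for emigration from bone marrow, rose from 23.4 and 22.9 to 34.4 and 46.7 CPM (log2 0.91). Gpr183, the oxysterol receptor that positions splenic DCs, rose by 0.67. Cxcr4, the CXCL12 receptor, fell from 109 and 84.1 to 76.0 and 53.6 CPM (log2 -0.56).

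Because the study concerns LXR, a nuclear receptor that senses oxysterols, its targets and cholesterol genes were read as a list. Of 18 tested genes 6 were higher and none lower (median 0.11). The count was 2 without the library block, 3 by DESeq2, 0 of 18 (median 0.02) for members with all 4 genes and 6 of 17 against depth-matched cells. They included the cholesterol synthesis genes Hmgcs1 (26.3 and 26.0 to 42.0 and 41.7 CPM, log2 0.72), Idi1 (0.55) and Sqle (0.54), and Npc2, which carries cholesterol out of lysosomes (0.25). The LXR target Abcg1, a cholesterol exporter, stood at 32.7 and 36.3 CPM against 33.3 and 35.0 (log2 0.08), Srebf1 differed by 0.03, and neither passed. Apoe, another LXR target, was at 50.9 and 44.6 CPM against 83.9 and 85.2 (log2 -0.80, adjusted p = 0.0502). Apoe is abundant in macrophages, whose 9 marker genes summed to 7.9 and 14.5 CPM in members against 15.1 and 19.5, and their part in the value was not tested.

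Genes of DNA replication were lower. Of 20 S phase genes 16 were lower and none higher, with a median of -0.60. Pcna, the sliding clamp of DNA polymerase, fell from 175 and 135 to 106 and 92.9 CPM (log2 -0.61), Rrm2, of ribonucleotide reductase, from 56.4 and 44.1 to 25.1 and 23.5 CPM (log2 -0.99), and Uhrf1, which maintains DNA methylation, by 0.98. Of 20 genes of G2 and mitosis 2 were lower, with a median of -0.18, and Mki67 fell from 24.5 and 26.1 to 17.2 and 14.4 CPM (log2 -0.72). The share of cells with a UMI of Mki67 or Top2a was 19.69% and 19.97% in members and 22.6% and 17.3% in comparison cells, so its order differed between the libraries. With those cells left out of both classes, 1 S phase gene was lower and the median was -0.17. Against depth-matched cells, 20 S phase and 19 G2 and mitosis genes were lower, with medians of -1.14 and -1.18, and without the library block 6 S phase genes were. For members with all 4 genes, 1 of 20 S phase genes was lower (median -0.22). Of 20 G2 and mitosis genes 0 were lower there (median 0.21). With at least 6 XCR1 UMIs, 15 S phase genes were lower (median -0.50). Of the G2 and mitosis genes 2 were then higher and 1 lower (median 0.11).

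By size of change, the 15 most raised genes with at least 20 CPM in members were, besides those given, Serpina3g and Slc4a8. Serpina3g, a serine and cysteine protease inhibitor, rose from 41.6 and 71.7 to 319 and 400 CPM (log2 2.71). Slc4a8, a bicarbonate transporter, rose from 3.56 and 7.99 to 16.9 and 31.2 CPM (log2 2.09). Ccr7-positive Fscn1-positive cDC1 had more of it than the members, at 65.3 and 109 CPM (log2 -1.96 for members against them). Ccr7-positive Fscn1-negative cDC1 had less, at 8.80 and 10.2 CPM (log2 1.38). The 15 most lowered were led by Igha, the immunoglobulin alpha chain of plasma cells (81.6 and 64.3 to 8.92 and 9.66 CPM, log2 -2.80), and Hmox1, heme oxygenase (41.1 and 40.5 to 9.92 and 18.2 CPM, log2 -1.41). Igha stood at 87.9 and 9.68 CPM in cells with 2 of the genes, so it varied between libraries, and Hmox1 differed by 0.018 once depth was matched. The others included genes of replication and cycling, namely Mki67, Rrm2, Uhrf1, Pclaf (-0.89), Tk1 (-0.87), Gins2 (-0.82), Rrm1 (-0.78), Rpa2, Dtl and the histone genes H1f5 and H2ac8. St6gal1, a sialyltransferase, fell by 0.76 and Dkk3 by 0.73.

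RNA of other cell types was read from marker lists. Of 6 plasmacytoid DC markers tested, Tcf4 (log2 0.70) and Siglech (2.07, in 8 member cells) were higher, and the list summed to 67.8 and 75.0 CPM in members against 59.2 and 55.1. Of 4 classical monocyte markers Ccr2 and Ly6c2 (8.75 and 18.4 to 25.5 and 34.1 CPM) were higher, with sums of 60.5 and 96.1 against 41.1 and 47.1. Of 6 NK cell markers 1 was higher, Klrk1, which encodes the receptor NKG2D (72.9 and 66.6 to 122 and 121 CPM, log2 0.84), with sums of 168.9 and 167.3 against 110.6 and 140.1. Of 6 macrophage markers Vcam1 was lower (6.55 and 9.42 to 2.97 and 4.56 CPM). Klrk1 and Tcf4 were already well detected in the comparison cells. No marker of T cells, B cells, plasma cells, neutrophils, erythroid cells, nonclassical monocytes or cDC2 passed in the main fit. Some of these counts varied with the setting. Against depth-matched cells 4 of 4 neutrophil markers were higher (median 3.06) and 4 of 6 erythroid markers lower (median -1.85). Without cycling cells 4 of 4 neutrophil markers were lower (median -2.13). With only the 2 classes in the fit, 2 of 5 B cell markers were higher and 3 of 6 erythroid markers lower. T cell markers summed to 32.1 and 13.9 CPM against 17.0 and 19.8. Neutrophil markers summed to 33.7 and 547.0 against 336.7 and 187.9, where a single cell of library 2 held 87.2% of the members' S100a8, and B cell markers summed to 282.3 and 954.6 against 534.2 and 449.2. The part of these cells in the results was not tested.

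The members were not uniform. At 4000 UMIs a cell, 5 or more Cxcl9 UMIs were seen in 67 of 257 members of library 1 (26.1%) and 223 of 640 of library 2 (34.8%), against 7.50% and 9.80% of cells with none of the 4 genes. Ccr7-positive Fscn1-negative cDC1 reached that number in 26.3% and 30.6% of cells, and Fscn1-positive ones in 5.34% and 9.62%. The 10% of members richest in Cxcl9 held 60.3% and 52.2% of its UMIs. Type I interferon-stimulated genes summed to 20 or more UMIs in 21 (8.17%) and 43 (6.72%) members, against 1 cell and 0 cells of the comparison class. That sum was more frequent in Ccr7-positive Fscn1-positive cDC1, at 33.6% and 28.2% of cells, and less so in Fscn1-negative ones, at 3.23% and 2.35%. GTPases summed to 2 or more UMIs in 15.2% and 23.1% of members, against 1.92% and 2.76%. In contrast, 168 (65.4%) and 351 (54.8%) members reached none of 5 Cxcl9, 2 GTPase or 2 Isg15 UMIs, against 89.9% and 87.1% of cells with none of the 4 genes.

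The strong features overlapped in part. Of members with 2 or more GTPase UMIs, 76.9% and 79.1% also had 5 or more of Cxcl9, as did 56.3% and 55.3% of those with 2 or more of Isg15 and 57.1% and 62.8% of those with 20 or more of interferon-stimulated genes. Of members with 5 or more Cxcl9 UMIs, in turn, 44.8% and 52.5% had 2 or more GTPase UMIs, 26.9% and 21.1% had 2 or more of Isg15 and 17.9% and 12.1% had 20 or more of interferon-stimulated genes. Split by Cxcl9 into 0, 1 to 4, and 5 or more UMIs, the summed GTPases stood at 59.2, 77.2 and 577 CPM in library 1 and at 72.0, 128 and 530 CPM in library 2. Serpina3g stood at 35.2, 97.5 and 1164 CPM and at 64.5, 153 and 984 CPM. Both were thus concentrated in the cells richest in Cxcl9, in each library. Cd40 followed the same split, at 21.7, 32.5 and 208 CPM and at 16.6, 27.3 and 153 CPM. Isg15 stood at 65.9, 156 and 432 CPM and at 89.8, 113 and 255 CPM. Among the chosen genes Ly6a varied less, from 130 to 169 CPM in library 1 and from 167 to 213 CPM in library 2. Median depth did not follow the split, at 10118, 11521 and 9547 UMIs and at 9998, 10016.5 and 9572 UMIs.

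**Figure D4:**
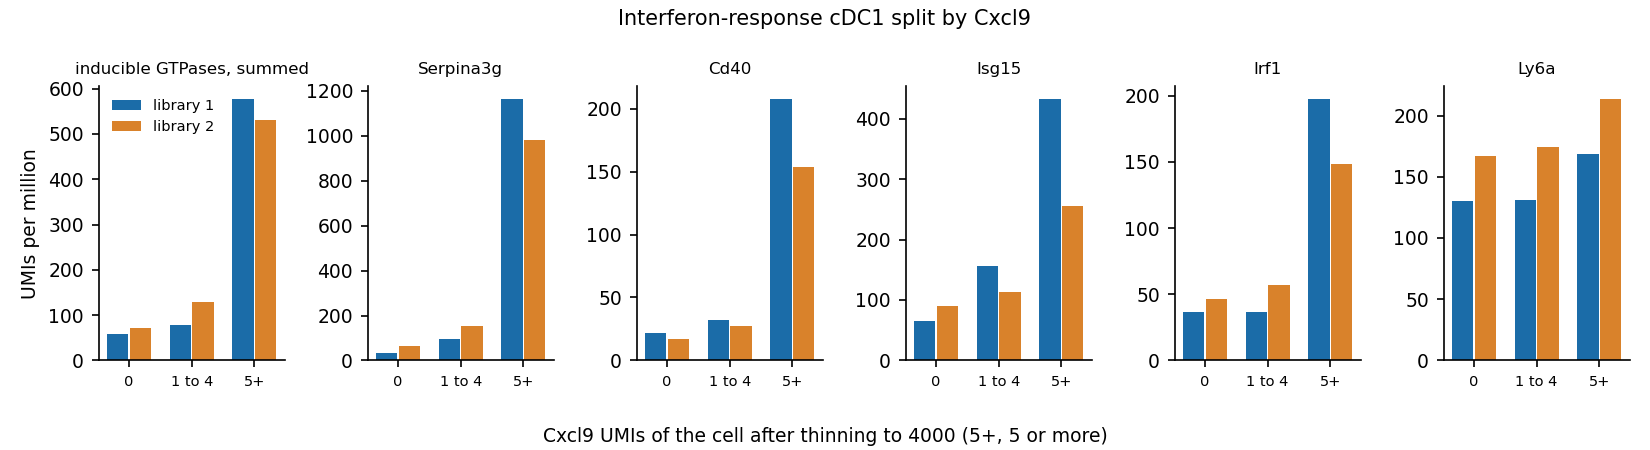
Levels in CPM (vertical axes from 0) within interferon-response cDC1 split by the Cxcl9 UMIs of the cell after thinning to 4000 UMIs; each bar is the pooled level of 1 library, without error because cells of a library are no replicates. Summed GTPases rise from 59.2 and 72.0 in cells without Cxcl9 to 577 and 530 in those with 5 or more, while Ly6a changes least of the 6 panels.

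Levels also differed with the gene that was missing. Members that lacked Iigp1 had Cxcl9 at 656 and 743 CPM and GTPases at 108 and 134 CPM. Members with all 4 genes had Cxcl9 at 4808 and 3682 CPM, GTPases at 482 and 535 CPM and Serpina3g at 1295 and 1026 CPM. Members that lacked Ly6a had Cxcl9 at 5614 and 4396 CPM. These splits are described without a test, since they divide the cells by genes of the rule.

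Surface proteins gave a test on measures the rule did not use, except XCR1 and CD172a, which were left out. Of 170 antibodies tested 5 (2.94%) were higher and 2 (1.18%) lower, and 28 had an unadjusted p under 0.05. CD226, an activating adhesion receptor, rose from 15.0 and 12.5 to 24.2 and 19.3 UMIs per 10000 antibody UMIs (log2 0.65, adjusted p = 0.00852). CD43, a sialylated mucin, rose from 81.2 and 82.0 to 124 and 103 (log2 0.47, adjusted p = 0.0193). CD317, the protein of Bst2, rose from 9.50 and 10.5 to 16.0 and 15.0 (log2 0.63, adjusted p = 0.0193), and Bst2 RNA was higher too. The antibody to Ly6A and Ly6E rose from 54.2 and 95.7 to 72.4 and 137 (log2 0.47), and its RNA target Ly6a is in the rule. CD117, the stem cell factor receptor, rose from 142 and 166 to 184 and 219 (log2 0.38). CD39, an enzyme that degrades extracellular ATP, fell from 120 and 153 to 96.3 and 126 (log2 -0.30), and its RNA Entpd1 fell by 0.41. The antibody to the gamma-delta T cell receptor also fell, from 0.965 and 1.02 to 0.655 and 0.545, below the 1.89 of the highest isotype control apart from 1 that a single cell carried.

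**Figure D5:**
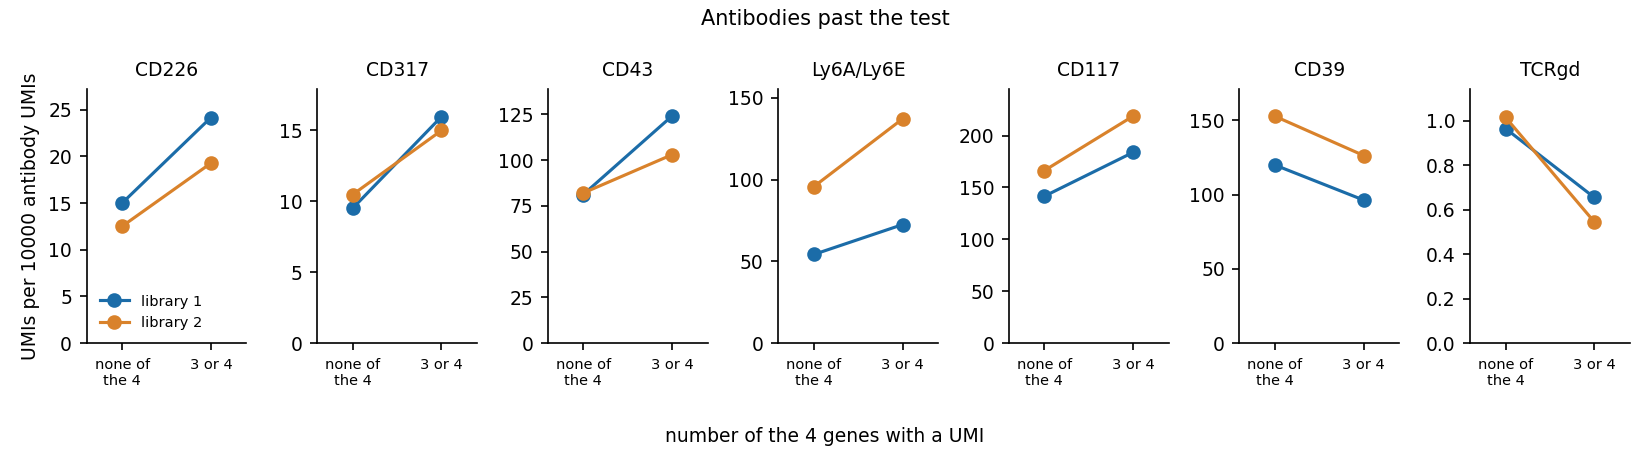
Antibody UMIs per 10000 antibody UMIs (vertical axes from 0) in cDC1 with none of the 4 genes and with 3 or 4, for the 7 antibodies with an adjusted p under 0.05; points of 1 library are joined. CD226 rises from 15.0 and 12.5 to 24.2 and 19.3, and CD39 falls from 120 and 153 to 96.3 and 126.

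The plot of antibody levels shows differences smaller than those of the leading RNAs, and none of the 7 was called against depth-matched cells or without the library block. In the depth-matched comparison CD226 differed by 0.52, Ly6A and Ly6E by 0.50 and the gamma-delta T cell receptor by -0.92 on the log2 scale (adjusted p = 0.0502 for each). CD317 differed by 0.41, CD39 by -0.23, CD43 by 0.15 and CD117 by 0.13. Without the block the log2 differences of CD226, CD43 and CD317 were 0.65, 0.47 and 0.63. RNA of the targets Cd226 (log2 1.19, adjusted p = 0.0696), Spn (0.23) and Kit (0.19) did not pass. Antibodies to the costimulatory proteins CD80 (log2 -0.02, adjusted p = 0.965) and CD86 (-0.15, adjusted p = 0.343) and to PD-L1 (CD274, 0.23, adjusted p = 0.279) did not pass either.

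The members were then set beside Ccr7-positive cDC1 of the same libraries, with at least 2 Ccr7 UMIs and either no Fscn1 (498 cells) or at least 1 UMI of it (339 cells). These comparisons share the member sums with the one above. Scrublet marked 22.1% and 20.9% of those cells, against 4.31% of members, and its part was not tested. Relative to the Fscn1-positive cells, 2183 genes (17.6%) were higher in members and 2322 (18.7%) lower. Relative to the Fscn1-negative cells, 1041 (8.39%) were higher and 1290 (10.4%) lower. T cell markers summed to 32.1 and 13.9 CPM in members, 368.7 and 378.5 in the Fscn1-negative and 91.8 and 45.6 in the Fscn1-positive cells, and their part was not tested either. The median log2 difference over all genes was 0.045 against the Fscn1-positive and -0.00015 against the Fscn1-negative cells.

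Maturation genes were lower in the members than in both. The classes were themselves chosen by the maturation genes Ccr7 and Fscn1. Differences in genes that go with them were therefore favoured by the choice and are no independent result. All 26 NF-kB and maturation genes tested were lower than in Fscn1-positive cells (median -2.68), and 25 were lower than in Fscn1-negative cells (median -1.68). Relb was at 39.0 and 43.1 CPM in members, 225 and 217 in Fscn1-negative and 534 and 487 in Fscn1-positive cells. Il12b was at 33.7 and 50.5 CPM, against 958 and 780 and then 1299 and 1383 (log2 -4.33 and -5.04). Ccl22, which attracts CCR4-bearing T cells, was lower by 5.02 and 5.63 on the log2 scale. Of 20 identity genes 14 were higher than in Fscn1-positive cells, with Xcr1 higher by 1.12 and Naaa by 1.20.

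Interferon-stimulated genes did not all run with the members. Their summed level was 2206 and 2113 CPM in members, 1883 and 1873 in Fscn1-negative and 3708 and 3483 in Fscn1-positive cells. Against Fscn1-positive cells 20 of 43 were higher and 5 lower (median 0.75), and against Fscn1-negative cells 19 were higher and 5 lower (median 0.55). Isg15 was higher in members than in either class (log2 0.71 and 0.92), as was Ifi44 (2.14 and 2.25). Cxcl10 was higher than in Fscn1-positive cells, at 228 and 131 CPM against 24.4 and 28.3 (log2 2.59), but did not pass against Fscn1-negative cells at 180 and 72.0 (0.50, adjusted p = 0.0779). Cxcl9, given as description, was at 1227 and 1043 CPM in Fscn1-negative and at 192 and 365 in Fscn1-positive cells. Epsti1 ran the other way, at 2422 and 2153 CPM in Fscn1-positive cells (log2 -3.26). Usp18 was also called lower in members, at 42.0 and 28.9 CPM against 40.9 and 52.7 in Fscn1-positive cells (log2 -0.59, adjusted p = 0.0230).

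Of the 15 GTPases tested, 3 were higher in members than in Fscn1-positive cells and 5 lower. Over all genes 17.6% were higher and 18.7% lower. The called GTPases are named with their family, and no result for a whole family is read from these few calls. The higher ones, Ifi47 (log2 1.80), Igtp (2.14) and Irgm1 (2.65), are immunity-related GTPases, and the lower ones, Gbp2, Gbp4, Gbp5, Gbp8 and Gbp9, are guanylate-binding proteins. Gbp5 (-1.69) and Gbp4 (-3.33) stood at 59.5 and 84.2 and at 152 and 133 CPM in Fscn1-positive cells. Irf1 was likewise lower in members, at 74.0 and 84.4 CPM against 313 and 405 (log2 -2.30). The LXR target Abcg1 was lower by 2.64, at 226 and 185 CPM in Fscn1-positive cells. Of the chosen genes, Irf7 was at 63.8 and 59.8 CPM and Slfn5 at 30.1 and 40.5 CPM in Fscn1-positive cells, given without a test. Against Fscn1-negative cells, 2 of the 15 GTPases were higher and 3 lower, beside 8.39% and 10.4% of all genes. Gbp5 (log2 -0.36), Gbp2 (-0.17) and Ifi47 (0.32) did not pass there. Summed without Iigp1, GTPases stood at 187 and 242 CPM in members and at 264 and 242 CPM in Fscn1-negative cells. The same sum was 435 and 438 CPM in Fscn1-positive cells.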

How the data were processed

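The authors deposited whole-number UMI counts, not normalized, in 1 matrix that joins both libraries. Per the file headers it came from Cell Ranger 3.1.0, and the submitters' processing notes name Cell Ranger, STAR, Seurat 3.1.4 and mm10. Any equalising of depth between libraries was not given in the sources used here. Libraries were told apart by barcode suffix, which could not be tied to a replicate label. They held 13822 and 17968 cells with 99617992 and 129565040 RNA UMIs and 13667427 and 17153368 antibody UMIs. Of 190 antibody features 172 were used.

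Counts of each of 6 classes (0, 1, 2, or 3 or 4 genes, and Ccr7-positive cells without and with Fscn1) were summed by library, and the 12 sums entered 1 edgeR 4.0.16 quasi-likelihood fit in R 4.3.3, with TMM factors, filterByExpr and library as a block, because all classes of a library come from the same suspension. Antibodies were fitted likewise, from a minimum of 100 UMIs. Genes and antibodies of the rule stayed in library sizes but out of tests. On simulated sums for the comparison with cells with none of the 4 genes (12254 genes), 50.7% of genes changed by a log2 of 0.5 and 97.0% of those changed by 1 were called, and 1 of 12054 unchanged genes was. Changes were put only into genes with a mean of at least 20 CPM, so rarer genes were not covered. On simulated antibodies (170), 1 of 9 changed by 0.5 and 5 of 9 changed by 1 were called. Counts were drawn from the spread of the fit itself. No cells were chosen by detected genes and no depth per cell was modelled, so the simulated rate of false calls does not carry over to the real comparison. Doublets were marked with Scrublet in scanpy 1.11.5 (Python 3.11.15, numpy 2.4.6, scipy 1.17.1) and kept. Other fits, scalings, filters, thresholds of the rule, exclusion of doublets or cycling cells and depth matching were run as alternatives. Genes named by size were the 15 highest and 15 lowest differences among called genes with at least 20 CPM in the higher class and the same direction in both libraries. List members named were mainly the largest called differences at 10 CPM or more and the best-known members that did not pass. Members and lists were chosen with earlier results of these data known. The list symbols Ifgga3, Mb21d1, Sting1, Rigi and Marchf1 matched no gene name of the matrix. Some members of the lists enter the counts but are not reported here by name.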

Additional observations from a re-analysis of the deposited data

How the results depend on the processing

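In the comparison with cells with none of the 4 genes, 516 RNAs were called. The count was 174 without the replicate block, 937 with only these 2 classes in the fit, 314 for members with all 4 genes and 1071 against depth-matched cells. It stayed within 1.5 times under 10 other settings, from 360 (at least 2 genes) to 733 (no filter, with 311 higher and 422 lower), with 438 by DESeq2 1.42.0 and 649 with the chosen genes thinned to 4000 UMIs. Antibody calls were less stable. From 7 they went to 0 without the replicate block, with isotype library sizes (also without 1 isotype carried by a single cell, an alternative chosen after seeing the data), with at least 2 genes and against depth-matched cells, where 11, 0, 9, 17 and 18 had an unadjusted p under 0.05. They were 3 with only the 2 classes, 11 with total counts as sizes, 2 with the chosen genes thinned and 1 without doublets. Shares of members were 1.24% and 2.62% thinned, 0.324% and 0.905% for all 4 genes and 23.7% and 29.7% for at least 2.

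Log2 differences changed sign for Hmox1 (0.018), Naaa (0.17) and Pmaip1 (0.049) against depth-matched cells, for Ccl4 (0.31), Itgae (0.018) and Pmaip1 (0.010) with the chosen genes thinned, for Rpa2 (0.13), Itgae (0.017), Idi1 (-0.12), Siglech (-5.64) and Vcam1 (0.27) with all 4 genes, for Nfkbia (-0.013) with at least 2 genes and for H1f5 (0.082) without cycling cells. The causes were not tested. Leaving out a library leaves 1 sum a class and no test. With 2 libraries, low shares and RNAs of few UMIs are the limit.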

Other observations

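Cell death and inflammasome genes were higher in part in interferon-response cDC1, 5 of 18 tested with 1 lower (median log2 difference 0.10). Casp4, which encodes the caspase-11 sensor of cytosolic lipopolysaccharide, stood at 11.2 and 13.0 CPM against 3.27 and 4.15 (1.73), and Casp1 at 26.8 and 18.2 against 16.0 and 12.1 (0.65). Daxx (0.59), Casp8 (0.44) and the inflammasome adaptor gene Pycard (0.26) were also higher. Pmaip1, which encodes the apoptosis inducer NOXA, was lower, at 226 and 236 CPM against 315 and 287 (-0.34). Among immediate early and heat shock genes, which respond to tissue handling, 1 of 20 was higher (Atf3, 0.36) and 1 lower (Egr3, -0.28).

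Over the 12 class sums, the genes whose level most resembled the mean of the 4 chosen genes were Mtmr14 (Pearson r = 0.90), Rnf213 (0.88), Acadl (0.88), Zbp1 (0.87), Mndal (0.86), Xaf1 (0.85), Ifi27l2a (0.85), Pml (0.84), Ifi44 (0.84) and Gm12250 (0.83). The values are a description, since the sums share libraries and the classes were made from the chosen genes.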
